A study of Rattus norvegicus with 15 samples.

Results

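Sox9, Sox5, Sox6, Runx2, Runx3, Mef2c, Nfatc2 and Erg are 8 genes for transcription factors of the SOX, RUNX, MEF2, NFAT and ETS families that act in chondrocytes, the cells of cartilage. They were chosen by gene symbol, and their levels were followed over 5 stages of life in knee cartilage of the rat. Each gene was measured by 1 probe set, so the genes stand for 8 of 18166 genes with a single symbol and for 8 of 36685 probe sets on the array. The samples were articular cartilage taken from right knees of Sprague-Dawley rats, harvested knee by knee, with 3 arrays per stage and 15 in all. T0 was the newborn stage, T1 youth, T2 the adult stage, T3 an early and T4 a later stage of old age. All stages share strain, tissue and side, no treatment or altered gene is named, and neither age in weeks nor sex is stated in the labels used here. The source name of T1 replicate 3 reads adult, but all its other labels read youth, and it was kept in youth.

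SOX9 directs cells into the chondrocyte fate and activates the genes of the cartilage matrix. SOX5 and SOX6 lack an activation domain of their own and bind beside SOX9 at cartilage enhancers. RUNX2 and RUNX3, which bind DNA with the partner CBFB, drive the enlargement of growth plate chondrocytes (hypertrophy), and RUNX2 is also required for bone-forming osteoblasts. MEF2C acts in the same step of hypertrophy, is held back by the histone deacetylase HDAC4 and is better known from skeletal and heart muscle. NFATC2 enters the nucleus when calcium activates calcineurin, is best known from lymphocytes, and is needed in the mouse to keep adult joints intact. ERG is an ETS factor of endothelial cells that also marks developing joints in the mouse and chick.

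Start regions from RefSeq (GRCr8) were matched by symbol for 5 of the 8 genes, Sox6, Runx2, Runx3, Nfatc2 and Erg, giving 7 windows of 300 bases (250 before and 50 after a start). The core letters of each family's motif were searched on both strands: ACAAT for SOX, ACCACA for RUNX, GGAAA for NFAT and GGAAG for ETS, and for MEF2 the letters CTA followed after any 4 bases by TAG. The NFAT and ETS cores have the same first 4 letters and differ in the last, so no stretch matches both. The upstream 250 bases of Runx2, Runx3 and Erg are shown as examples that hold matches to the cores of the genes' own or a fellow member's family. Other windows with such matches, that of Sox6 among them, are not shown. Capitals mark the RUNX core in Runx2 (chr9:23664808-23665057, plus strand) and Runx3 (chr5:152644020-152644269, plus strand), and the SOX core in Erg (chr11:48251567-48251816, minus strand).
Runx2 upstream: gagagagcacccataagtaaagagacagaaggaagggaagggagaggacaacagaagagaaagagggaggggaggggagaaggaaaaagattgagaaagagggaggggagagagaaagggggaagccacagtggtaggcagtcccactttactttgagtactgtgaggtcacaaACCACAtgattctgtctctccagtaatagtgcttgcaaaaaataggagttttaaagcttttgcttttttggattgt
Runx3 upstream: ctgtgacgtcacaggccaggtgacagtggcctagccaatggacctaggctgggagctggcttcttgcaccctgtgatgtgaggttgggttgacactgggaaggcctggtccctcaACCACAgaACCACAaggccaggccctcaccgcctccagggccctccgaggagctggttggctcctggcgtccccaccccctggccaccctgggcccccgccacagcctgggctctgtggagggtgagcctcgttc
Erg upstream: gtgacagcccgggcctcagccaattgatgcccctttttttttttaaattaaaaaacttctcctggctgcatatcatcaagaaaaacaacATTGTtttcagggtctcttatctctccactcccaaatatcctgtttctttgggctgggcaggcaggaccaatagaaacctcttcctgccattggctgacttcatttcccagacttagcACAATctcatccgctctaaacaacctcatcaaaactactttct
Runx2 after the start (chr9:23665080-23665102): aaacaACCACAgaACCACAagtg

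The Runx2 window held 3 RUNX cores, 1 before the start and 2 after it, and the Runx3 window held 2 before the start. The paired cores are the same 18-base stretch, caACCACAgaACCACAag, beginning at position 26 of Runx2 and at position -137 of Runx3, both counted from the start. At least 1 RUNX core lay in 17.3% of all 33469 windows of this length, at least 2 in 2.02% and at least 3 in 0.209%. The second start of each of these genes held no RUNX core. Erg held 2 SOX cores, at positions -161 and -43, and Sox6 held 2, at -68 and -13, and at least 2 lay in 9.36% of all windows. Nfatc2 held none of the SOX, RUNX, NFAT and MEF2 cores and 1 ETS core, which 70.1% of windows hold. Its window was rich in GC (71.7%), and no window of the 5 genes held the MEF2 core, found in 3.84% of all windows. These matches describe letters only, and binding was not measured.

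The arrays differed by stage in ways that touch every comparison with T3 or T4. The standard deviation over probe sets lay between 2.00 and 2.05 at T0 to T2, 1.83 and 1.97 at T3, and 1.48 and 1.71 at T4. The median of 1183 olfactory receptor genes, which cartilage is not known to use, lay at 2.84 to 3.03 on the log2 scale at T0 to T2, 3.00 to 3.41 at T3 and 3.57 to 4.38 at T4. That of 55 ribosomal protein genes lay at 9.73 to 10.16 at T0 to T2, 9.66 to 10.00 at T3 and 6.63 to 9.13 at T4. T4 replicate 1 stood apart with the lowest ribosomal median and a mean correlation of 0.529 with the arrays of T0 to T2. The part of these differences in the results below was not tested. The mean log2 signal of 8 measured chondrocyte markers (Col2a1 and Acan among them) was 10.69 to 10.94 at T0, 10.49 to 10.80 at T1, 9.35 to 10.06 at T2, 7.42 to 8.59 at T3 and 6.08 to 7.21 at T4. In whole tissue, fewer cells of a type and less RNA per cell cannot be told apart. The number of arrays limits the precision, and the table holds no detection calls, so whether a dim probe set lay above background cannot be read from it.

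**Figure D1:**
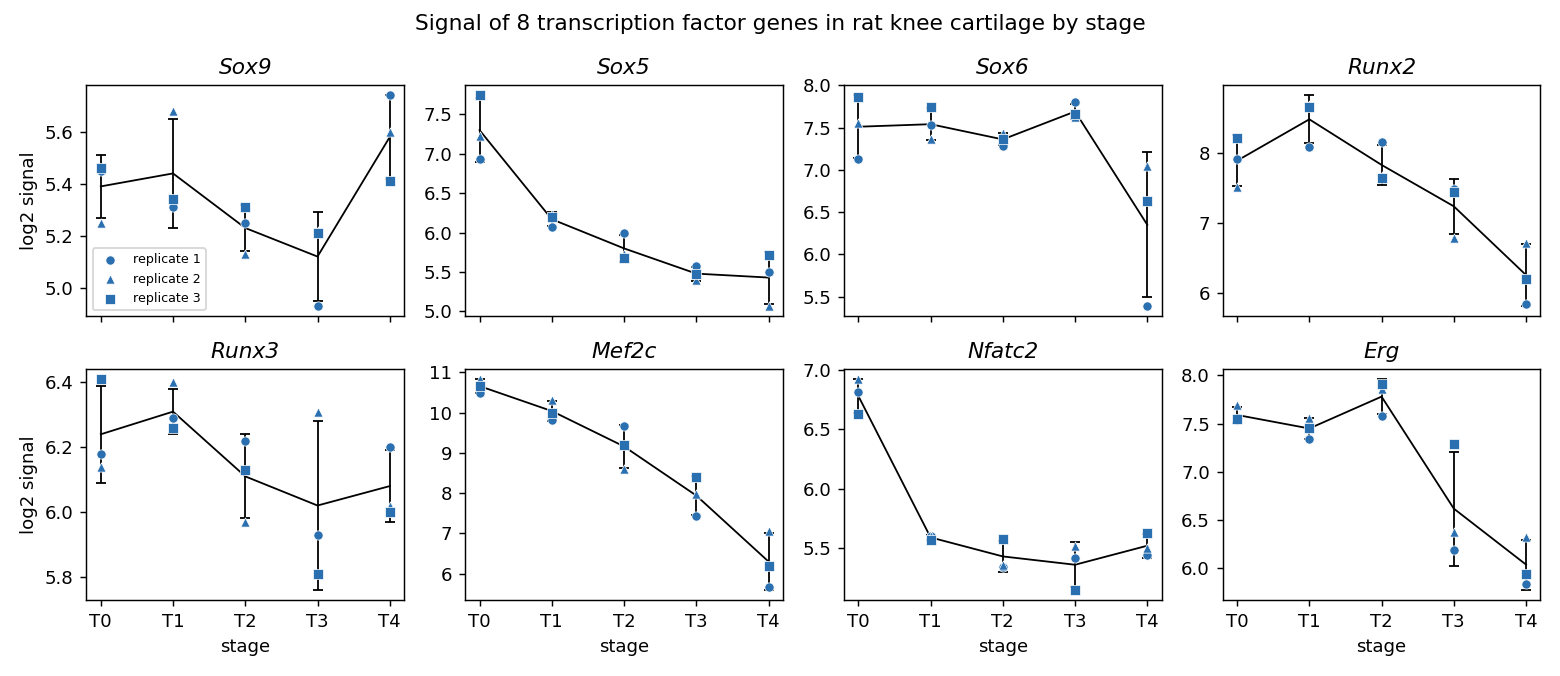
Log2 signal (vertical axis, own scale in each panel) of the 8 genes at stages T0 to T4. Symbols are single arrays by replicate number, and the line with bars is the stage mean ± SD (n = 3). Mef2c steps down at every stage, Sox5 and Nfatc2 are highest at T0, Runx2, Erg and Sox6 are lowest at T4, and Sox9 and Runx3 span 0.81 and 0.61 over all arrays.

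Over the 5 stages, 6 of the 8 genes changed in limma's moderated F test at an adjusted p under 0.05, a threshold that 60.1% of all probe sets passed. They were Mef2c (adjusted p = 4.65e-06), Nfatc2 (5.57e-05), Sox5 (7.16e-05), Erg (0.000229), Runx2 (0.000246) and Sox6 (0.0166). Sox9 (adjusted p = 0.183) and Runx3 (adjusted p = 0.509) did not pass. In pairwise comparisons every call on these genes was a fall in the later stage. In the values as deposited the calls split by time. Sox5 and Nfatc2 passed only in comparisons with T0, Runx2, Erg and Sox6 only in comparisons with T4, and Mef2c in both. Whether the genes differ from each other in timing was not tested. At T2 to T4 the stage means were 5.43 to 5.80 for Sox5 and 5.36 to 5.52 for Nfatc2. The array medians over all probe sets lay between 4.94 and 5.28. How much room these levels left for a later fall was not tested. A model on the arrays of T0, T1 and T2 alone, chosen after seeing the data, called 3 of the 8 genes over those stages, Sox5, Mef2c and Nfatc2, where 20.3% of probe sets were called. The Sox6 call over the stages ended with quantile normalization (adjusted p = 0.361), without the T4 arrays (0.514) and without T3 and T4 (0.736).

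Sox5 had its own highest signal in the newborn. Its log2 signal was 6.93, 7.22 and 7.74 in the T0 arrays, 6.07, 6.24 and 6.20 in the T1 arrays and 6.00, 5.73 and 5.68 in the T2 arrays. It was 5.58, 5.40 and 5.47 at T3 and 5.50, 5.07 and 5.71 at T4. The arrays of T0, T1, T2 and T3 descended without overlap, and those of T3 and T4 overlapped. Against T0, Sox5 fell by 1.13 at T1 (SE 0.23, 2.18-fold lower, limma adjusted p = 0.00521). At T2 against T0 it fell by 1.49 (SE 0.23, 2.82-fold lower, adjusted p = 0.000309). The later steps were smaller and none passed: -0.37 at T2 against T1 (adjusted p = 0.825), -0.32 at T3 against T2 (0.439) and -0.05 at T4 against T3 (0.865).

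Sox6, the close relative that pairs with SOX5, kept its level up to T3. The signal was 7.13, 7.55 and 7.86 at T0, 7.53, 7.37 and 7.74 at T1, 7.28, 7.43 and 7.36 at T2 and 7.80, 7.62 and 7.66 at T3. At T4 it was 5.39, 7.04 and 6.63. The stage means of T0 to T3 spanned 0.34, and all T4 arrays lay below every array of the earlier stages, with replicate 1 farthest below. Sox6 fell by 1.34 at T4 against T3 (SE 0.33, 2.53-fold lower, limma adjusted p = 0.00621). Against T2 it fell by 1.00 (SE 0.33, 2.01-fold lower, adjusted p = 0.0184). The T4 against T2 call ended without T4 replicate 1 (-0.52, adjusted p = 0.0646), without T2 replicate 2 (-0.97, adjusted p = 0.0508) and with only the 6 arrays compared (adjusted p = 0.0841). The T4 against T3 change was -0.86 without T4 replicate 1 (adjusted p = 0.011), and with only the 6 arrays compared it did not pass (adjusted p = 0.0756). With quantile normalization the change was -0.46 against T2 (adjusted p = 0.411) and -1.01 against T3 (adjusted p = 0.0872).

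Sox9, the factor that defines the lineage, passed in no comparison. Its probe set gave 5.45, 5.25 and 5.46 at T0, 5.31, 5.68 and 5.34 at T1 and 5.25, 5.13 and 5.31 at T2. It gave 4.93, 5.22 and 5.21 at T3 and 5.74, 5.60 and 5.41 at T4. The T4 arrays lay above all of T3 and T2, the T2 arrays lay just below those of T1, and T0 overlapped T1, T2 and T4. The difference was 0.46 at T4 against T3 (SE 0.18, limma adjusted p = 0.0509) and 0.35 at T4 against T2 (SE 0.18, adjusted p = 0.107). The T4 against T3 value sat at the threshold: it passed with quantile normalization (0.59, adjusted p = 0.0227), array weights (0.45, adjusted p = 0.0145) and the filter on dim probe sets (0.46, adjusted p = 0.0356). It also passed without T3 replicate 2 (0.51, adjusted p = 0.0495) and without T4 replicate 3 (0.55, adjusted p = 0.0422). All 15 values lay between 4.93 and 5.74, and the array medians over all probe sets lay between 4.94 and 5.28. Whether this probe set followed Sox9 above background cannot be read from the values. The olfactory receptor median was higher at T4 too, and both were highest in T4 replicate 1 (5.74 and 4.38).

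Runx2, the hypertrophy and bone factor, was lowest at T4 and had its highest stage mean in youth, which was not separated from T0. Runx2 arrays read 7.92, 7.51 and 8.22 at T0, 8.08, 8.68 and 8.66 at T1 and 8.16, 7.67 and 7.65 at T2. It was 7.48, 6.79 and 7.44 at T3 and 5.85, 6.72 and 6.21 at T4. T2, T3 and T4 descended without overlap, and T0 overlapped both T1 and T2. Runx2 fell by 1.57 at T4 against T2 (SE 0.29, 2.97-fold lower, limma adjusted p = 0.000562). It fell by 0.98 at T4 against T3 (SE 0.29, 1.97-fold lower, adjusted p = 0.0158). The T4 against T2 change stayed past the threshold with quantile normalization (-0.97, adjusted p = 0.0188) and without T4 replicate 1 (-1.36, adjusted p = 0.0024). The T4 against T3 call ended with quantile normalization (-0.63, adjusted p = 0.112) and without T4 replicate 1 (-0.77, adjusted p = 0.0641), T3 replicate 1 (-0.86, adjusted p = 0.0591) or T3 replicate 3 (-0.88, adjusted p = 0.0563). The differences of T1 from its neighbours did not pass: T1 against T0 was 0.59 (SE 0.29, adjusted p = 0.347) and T2 against T1 was -0.65 (SE 0.29, adjusted p = 0.542). With array weights T1 against T0 was 0.69 (adjusted p = 0.0329).

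Runx3, whose protein shares roles with RUNX2 in chondrocyte maturation in the mouse and is also active in T cells, varied least of the 8 genes. Log2 signals were 6.18, 6.14 and 6.41 at T0, 6.29, 6.40 and 6.26 at T1 and 6.22, 5.97 and 6.13 at T2. It was 5.93, 6.31 and 5.81 at T3 and 6.20, 6.02 and 6.00 at T4. The T2 arrays lay just below those of T1 without overlap, and the other successive stages overlapped. The pairwise differences ran from -0.21 at T2 against T1 (SE 0.18, limma adjusted p = 0.993) to 0.07 at T1 against T0 (SE 0.18, adjusted p = 0.973). Its stage means thus spanned 0.30, and those of Runx2, which holds the same stretch of paired RUNX cores near its start, spanned 2.22, given as a description.

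Mef2c had the widest range of the 8 genes. Its log2 signal was 10.49, 10.83 and 10.66 at T0, 9.81, 10.32 and 9.99 at T1 and 9.67, 8.60 and 9.20 at T2. It was 7.43, 7.99 and 8.41 at T3 and 5.67, 7.05 and 6.18 at T4. Every stage lay below the one before it with no overlap, and the stage means spanned 4.36. Mef2c fell by 1.50 at T2 against T0 (SE 0.35, 2.84-fold lower, limma adjusted p = 0.00945). It fell by 2.86 at T4 against T2 (SE 0.35, 7.24-fold lower, adjusted p = 4.86e-05) and by 1.64 at T4 against T3 (SE 0.35, 3.12-fold lower, adjusted p = 0.00321). The earlier single steps did not pass, at -0.62 for T1 against T0 (adjusted p = 0.468), -0.88 for T2 against T1 (0.437) and -1.21 for T3 against T2 (0.102).

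The step of Mef2c at T3 against T2 passed under some alternatives. In a model without the T4 arrays it passed (adjusted p = 0.0416), as it did without T4 replicate 1 (0.045), without T3 replicate 3 (-1.45, 0.0313) and with array weights (-1.59, 0.00119). The T2 against T0 call ended without T2 replicate 2 (-1.23, adjusted p = 0.0604), the lowest of the T2 arrays. The T4 against T2 call held with quantile normalization (-2.27, adjusted p = 0.000824) and without T4 replicate 1 (-2.54, adjusted p = 0.000137). Markers of skeletal muscle, where MEF2C is abundant, were high in the young samples. The mean of 8 measured muscle markers was 10.4 to 11.0 at T0, 7.93 to 8.65 at T1, 4.81 to 5.22 at T2, 5.30 to 6.21 at T3 and 5.51 to 6.90 at T4. All 8 fell at T2 against T0 (median -5.91), and 3 of 8 rose with none falling at T4 against T2 (median 0.95). Their part in the T2 against T0 fall of Mef2c was not tested.

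Nfatc2 was high only in the newborn. Its log2 signal was 6.81, 6.92 and 6.63 in the T0 arrays and 5.60, 5.60 and 5.57 in the T1 arrays. It was 5.34, 5.36 and 5.58 at T2, 5.42, 5.52 and 5.15 at T3 and 5.44, 5.50 and 5.63 at T4. The lowest T0 array, at 6.63, lay above the highest later array, at 5.63, and T1 to T4 overlapped in order of level. Nfatc2 fell by 1.20 at T1 against T0 (SE 0.17, 2.29-fold lower, limma adjusted p = 0.00038) and fell by 1.36 at T2 against T0 (SE 0.17, 2.56-fold lower, adjusted p = 5.61e-05). The other steps ran from -0.16 at T2 against T1 (SE 0.17, adjusted p = 1) to 0.16 at T4 against T3 (SE 0.17, adjusted p = 0.461). Lymphocyte markers went the other way: the mean of 9 T cell markers was 4.16 to 4.52 at T0 and 5.34 to 5.51 at T1, and 5 of the 9 rose (median 0.92). Of 5 measured B cell markers 4 rose (median 3.44). The muscle markers fell with Nfatc2, 7 of 8 at T1 against T0 (median -2.02). So did tendon and ligament markers, 3 of 6 at T1 against T0 (median -1.28) and 5 of 6 at T2 against T0 (median -1.94), alongside Sox5 as well. The part of either list in these falls was not tested.

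Erg held its level to the adult stage and was lower in old age. Its log2 signal was 7.54, 7.69 and 7.55 at T0, 7.34, 7.56 and 7.45 at T1 and 7.58, 7.86 and 7.91 at T2. It was 6.19, 6.38 and 7.29 at T3 and 5.84, 6.33 and 5.94 at T4. Every T3 and T4 array lay below every earlier one, with T3 replicate 3 just under the lowest T1 array. Erg fell by 1.75 at T4 against T2 (SE 0.25, 3.36-fold lower, limma adjusted p = 0.000119). That call held with quantile normalization (-1.24, adjusted p = 0.00159) and without T4 replicate 1 (-1.65, adjusted p = 0.000416). The T3 against T2 difference was -1.16 (SE 0.25, adjusted p = 0.0673), and it passed in the model without the T4 arrays (adjusted p = 0.033), without T4 replicate 1 (0.0289), without T3 replicate 3 (-1.50, 0.00188) and with array weights (-1.49, 0.000426). T4 against T3 was -0.59 (SE 0.25, adjusted p = 0.0775), and it passed without T3 replicate 1 (-0.80, 0.0342) or T4 replicate 2 (-0.73, 0.0424).

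ERG is also used by endothelial cells. The mean of 7 measured endothelial markers was 7.09 to 7.26 at T0, 7.08 to 7.23 at T1, 6.34 to 6.77 at T2, 6.16 to 6.78 at T3 and 5.74 to 6.01 at T4. At T2 against T0, 3 of the 7 fell, among them the junction protein Cdh5 (-2.07, SE 0.31, limma adjusted p = 0.000284), while Erg differed by 0.19 (SE 0.25, adjusted p = 0.829). At T4 against T2, 4 of the 7 fell and 1 rose, with a median of -0.77, in the same direction as Erg (-1.75), and the part of these cells in the late fall of Erg was not tested.

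**Figure D2:**
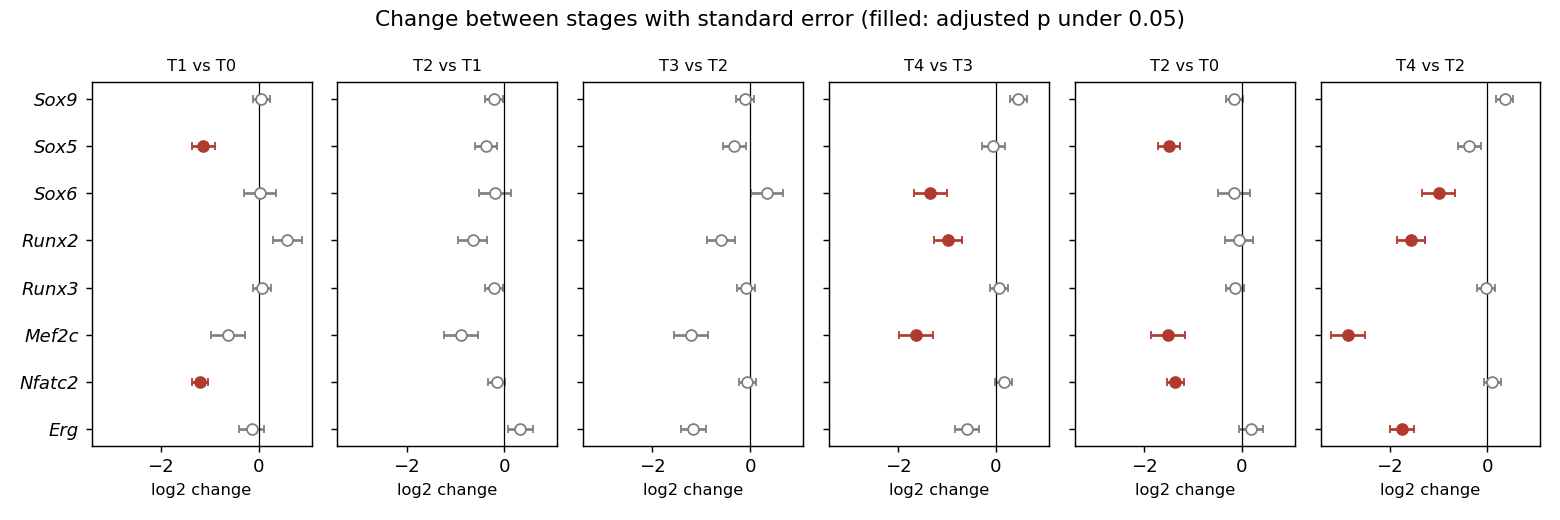
Log2 change of each gene (horizontal axis) in 6 comparisons, later stage minus earlier stage, with limma's standard error as bars. Filled points passed an adjusted p under 0.05. The filled points, all left of 0, are Sox5 and Nfatc2 at T1 against T0, Sox6, Runx2 and Mef2c at T4 against T3, Sox5, Mef2c and Nfatc2 at T2 against T0, and Sox6, Runx2, Mef2c and Erg at T4 against T2.

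Set beside all probe sets, the counts were uneven between comparisons. At T1 against T0, 2 of the 8 genes were called, both lower, where 7.56% of all probe sets were called and 3.54% were lower. At T2 against T0 it was 3 of 8, all lower, where 12.7% were called and 6.19% were lower. At T2 against T1 limma called 0 of 8 (2 at an unadjusted p under 0.05), where 0.891% of probe sets were called and 0.403% were lower. At T3 against T2 limma again called 0 of 8 (2 at an unadjusted p under 0.05), where 0.15% were called and 0.112% were lower. With array weights the counts were 1 and 2. At T4 against T3 it was 3 of 8, all lower, where 42.2% were called and 25.8% were lower, and with only the 6 arrays compared it was 0. At T4 against T2 it was 4 of 8, all lower, where 56.5% were called and 29.4% were lower. The late counts lie near the share called on the whole array. Arrays lay lower without overlap for 3 of the 8 genes at T1 against T0 (17.4% of probe sets), 4 at T2 against T1 (10.4%), 4 at T3 against T2 (10.4%), 3 at T4 against T3 (25.8%), 3 at T2 against T0 (18.5%) and 4 at T4 against T2 (31.3%). Arrays lay higher without overlap for Erg at T2 against T1, Sox6 at T3 against T2 and Sox9 at T4 against both T3 and T2. None of these rises was called in the values as deposited. The median change of the 8 genes at T4 against T2 was -0.69, against 0.07 over all probe sets and -0.12 over genes with a single symbol. At T2 against T0 it was -0.16 for the 8 genes, against -0.01 over all probe sets, and at T3 against T2 it was -0.22, against 0.09 over all probe sets and 0.01 over genes with a single symbol. Comparisons that share a stage share its arrays, so T2 with its 3 arrays enters both spans.

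The genes that SOX9, SOX5 and SOX6 are known to act on were followed through a list of cartilage matrix and chondrocyte genes, of which 16 of 18 were measured. All measured chondrocyte markers given above except Prg4 are in this list too, so both lists follow many of the same genes. None of the listed genes rose in any of the 6 comparisons. At T2 against T0, 12 of 16 fell, with a median change of -1.60. The largest falls among the named genes were the cartilage matrix protein Matn1 (5.42 at T2, against 10.33 at T0, change -4.91, SE 0.23, limma adjusted p = 1.33e-08), the small proteoglycan Epyc (4.63 at T2, against 9.26 at T0, change -4.63, SE 0.22, adjusted p = 1.33e-08) and the collagen IX chain Col9a2 (6.98 at T2, against 9.85 at T0, change -2.87, SE 0.23, adjusted p = 9.63e-07). The chief collagen of cartilage, Col2a1, differed by -0.45 in the same span (adjusted p = 0.81). The tendon list, in which 5 of 6 markers fell over the same span, shares Fmod with it.

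Over that span, in which 12 listed genes fell, Sox9 differed by -0.15 (SE 0.18, limma adjusted p = 0.783) and Sox6 by -0.16 (SE 0.33, adjusted p = 0.914), while Sox5 fell. The Sox9 values lay near the array medians, so whether they followed Sox9 above background cannot be read from them. The list's mean signal was 10.15 in the T0 arrays, 9.32 in the T1 arrays, 8.32 in the T2 arrays, 7.27 in the T3 arrays and 6.19 in the T4 arrays. Single steps called fewer genes, 4 at T1 against T0 (median -0.56), 2 at T2 against T1 (-1.02) and 2 at T3 against T2 (-1.35). In the model without T3 and T4, chosen after seeing the data, 6 fell at T1 against T0, 9 at T2 against T1 and 13 at T2 against T0. Without the T4 arrays 6 fell at T3 against T2, and with quantile normalization none did.

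At T4 against T2, 12 of 16 fell with a median of -2.56, and at T4 against T3 it was 7 (median -0.86). The link protein Hapln1 had a mean of 5.84 at T4, against 9.13 at T2 (change -3.29, SE 0.25, limma adjusted p = 5.19e-06). The proteoglycan aggrecan, Acan, had 6.61 at T4, against 10.17 at T2 (change -3.56, SE 0.47, adjusted p = 6.68e-05), and Col2a1 fell by 3.91 (adjusted p = 0.000105). Without T4 replicate 1 the counts were 12 at T4 against T2 and 4 at T4 against T3, and with quantile normalization 10 and 4. Sox9 values, which lay near the array medians, were higher at T4 in a change that did not pass the test. The olfactory receptor median was higher there too.

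**Figure D3:**
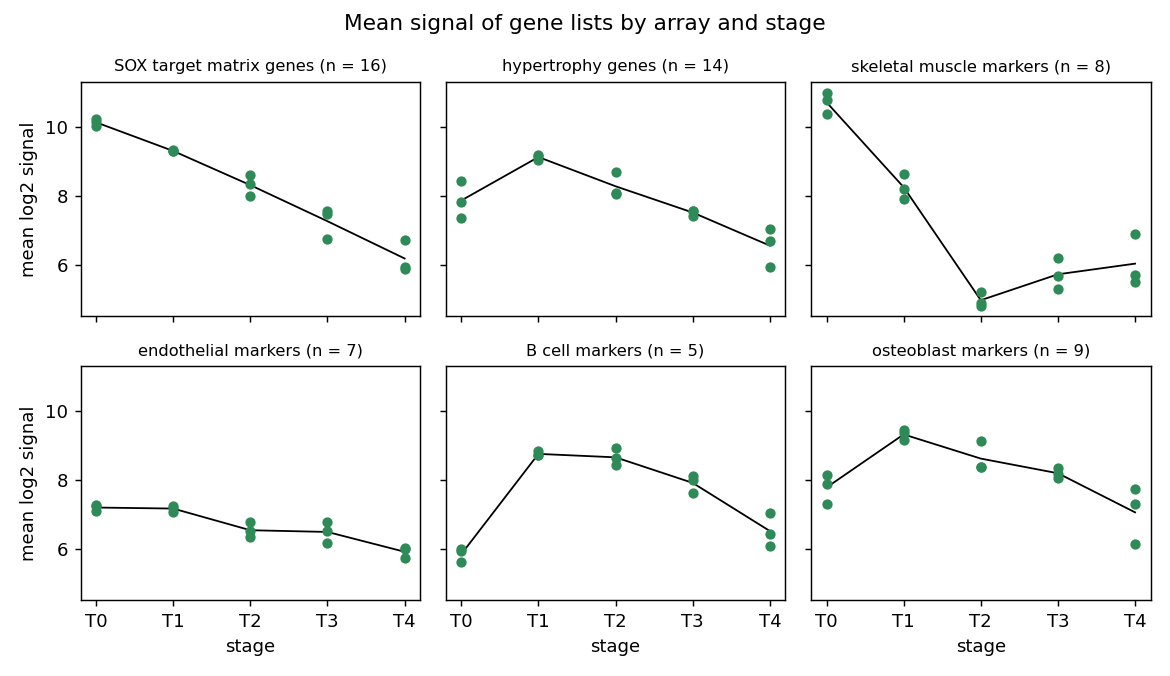
Mean log2 signal of the listed genes in each array (points) and its stage mean (line) at T0 to T4 for 6 lists, with the number of measured genes in each title. SOX target genes step down over all stages, the means of hypertrophy and osteoblast genes are highest at T1, muscle markers drop between T0 and T2, and B cell markers are lowest at T0.

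Genes linked to RUNX2, RUNX3 and MEF2C in hypertrophy and mineralization formed a list whose mean signal was 7.88 in the T0 arrays, 9.13 in the T1 arrays, 8.28 in the T2 arrays, 7.53 in the T3 arrays and 6.56 in the T4 arrays. All 14 listed genes were measured, and 5 rose at T1 against T0 with none falling (median 1.11). The bone matrix genes Dmp1 (9.51 at T1, against 6.07 at T0, change 3.45, SE 0.50, limma adjusted p = 0.000458) and Bglap (9.74 at T1, against 6.76 at T0, change 2.98, SE 0.35, adjusted p = 7.63e-05) and the phosphate regulator Phex (change 2.02, SE 0.41, adjusted p = 0.00542) rose. The hypertrophic collagen Col10a1 rose by 1.67 (adjusted p = 0.0114). The count was 8 without the T4 arrays, and over 4 alternatives it ran from 4 to 8. At T2 against T1, 2 fell, Phex (-1.93, SE 0.41, adjusted p = 0.0406) and Col10a1 (-1.73, SE 0.38, adjusted p = 0.0471), and with quantile normalization none did. At T3 against T2, 0 passed, and without the T4 arrays 3 fell. At T1 against T0 Mef2c differed by -0.62 (limma adjusted p = 0.468), Runx2 by 0.59 (0.347) and Runx3 by 0.07 (0.973). None of these passed in the values as deposited.

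At T4 against T2, 10 of the 14 fell and 1 rose (median -1.98), with Col10a1 at 6.08 in T4, against 8.98 in T2 (change -2.90, SE 0.38, limma adjusted p = 6.10e-05), the mineralization enzyme Alpl at 6.90 in T4, against 9.54 in T2 (change -2.64, SE 0.40, adjusted p = 0.000161) and the bone protein Spp1 at 8.36 in T4, against 11.01 in T2 (change -2.64, SE 0.45, adjusted p = 0.000338). With quantile normalization 7 fell and 1 rose, and without T4 replicate 1 it was 9 and 0. At T4 against T3, 8 fell and 1 rose (median -1.32), and with quantile normalization 3 fell and 3 rose. Osteoblast and osteocyte markers, several of them also in this list, moved with it. Their mean was 7.31 to 8.14 at T0, 9.15 to 9.45 at T1, 8.37 to 9.12 at T2, 8.07 to 8.35 at T3 and 6.14 to 7.73 at T4. Of 9 measured, 5 rose at T1 against T0, and 6 fell and 1 rose at T4 against T2. Whether Runx2 signal came from chondrocytes or from bone cells was not tested.

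Genes for proteins that work with the 8 factors or upstream of them gave few calls before old age. Of 18 measured partners and upstream regulators (23 listed), 1 rose and 1 fell at T1 against T0. Yap1, a growth regulator that binds RUNX2, fell by 1.05 (SE 0.23, limma adjusted p = 0.00925), and the class II deacetylase Hdac5 rose by 0.78 (SE 0.20, adjusted p = 0.0248). At T2 against T0, Yap1 (-1.76, SE 0.23, adjusted p = 8.14e-05) and its relative Wwtr1 (-1.64, SE 0.29, adjusted p = 0.0011) fell. At T4 against T2, 8 fell and 3 rose. Cbfb, the partner that RUNX proteins need, had 5.47 at T4, against 7.41 at T2 (change -1.93, SE 0.24, adjusted p = 4.84e-05). Hdac4, the repressor of MEF2C, fell by 1.42 (SE 0.18, adjusted p = 6.05e-05), and the acetyltransferase and coactivator Crebbp fell by 2.88 (SE 0.41, adjusted p = 0.000102). With quantile normalization 6 fell and 2 rose at T4 against T2, and without T4 replicate 1 it was 8 and 2.

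Of 13 other SOX genes measured (17 listed), 7 rose and 1 fell at T4 against T2. Of all 36685 probe sets, 9960 were called higher and 10768 lower there. Of Sox5, Sox6 and Sox9, 1 fell and none rose. Sox7 (7.34 at T4, against 5.75 at T2, change 1.59, SE 0.22, limma adjusted p = 9.45e-05) and Sox18 (6.14 at T4, against 4.57 at T2, change 1.57, SE 0.31, adjusted p = 0.000904), factors of blood vessel formation, rose. Sox17 of the same list was 4.43 at T4, against 4.74 at T2, and was not called. Of the 7 endothelial markers, 4 fell and 1 rose in this comparison. Sox4, a factor of progenitor cells, fell by 1.28 (SE 0.20, adjusted p = 0.000169). The count of rises was 6 with quantile normalization and 5 without T4 replicate 1, and the olfactory receptor median was higher at T4 too. At T1 against T0, Sox8, a relative of Sox9, fell by 0.96 (SE 0.20, adjusted p = 0.00714), Sox11 fell by 1.02 (SE 0.24, adjusted p = 0.0165) and Sox4 rose by 0.86 (SE 0.20, adjusted p = 0.0123).

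Among 12 measured relatives of the RUNX, MEF2, NFAT and ERG genes (14 listed), 3 rose and 2 fell at T2 against T0. Over 4 alternatives the rises ran from 1 to 3. The falls ran from 2 to 5, with 5 in the model without T3 and T4. The ERG relative Fli1 rose by 1.63 (adjusted p = 0.0351), Runx1, a factor of blood cells, by 0.91 (adjusted p = 0.0229) and Ets1 by 0.99 (SE 0.20, adjusted p = 0.00363). Ets2 (-0.98, SE 0.26, adjusted p = 0.0195) and Etv5 (-1.09, SE 0.23, adjusted p = 0.00456) fell. Blood and marrow markers rose in the same span: 9 of 10 neutrophil and myeloid genes (median 5.31), all 5 measured B cell genes (median 3.06) and all 4 measured erythroid genes (median 4.97), and their part was not tested. At T4 against T2, where Mef2c, Runx2 and Erg fell, 5 of 5 B cell genes (median -2.13), 6 of 10 neutrophil and myeloid genes (median -1.80) and 3 of 4 erythroid genes (median -1.99) fell too. Of the other marker lists at T4 against T2, 7 of 9 macrophage genes, 3 of 4 osteoclast genes and 2 of 6 tendon genes fell (1 rose), and 3 of 8 adipocyte genes rose and 2 fell. Among the relatives at T4 against T2, 5 fell and 3 rose, and with quantile normalization 2 fell and 4 rose. Nfat5, which responds to osmotic stress, fell by 2.77 (SE 0.28, adjusted p = 1.68e-05) and Nfatc3 fell by 2.15 (SE 0.35, adjusted p = 0.000254), whereas Nfatc2 differed by 0.10 (SE 0.17, adjusted p = 0.645). The neuronal ETS gene Fev was 2.19 higher (SE 0.31, adjusted p = 9.94e-05).

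**Figure D4:**
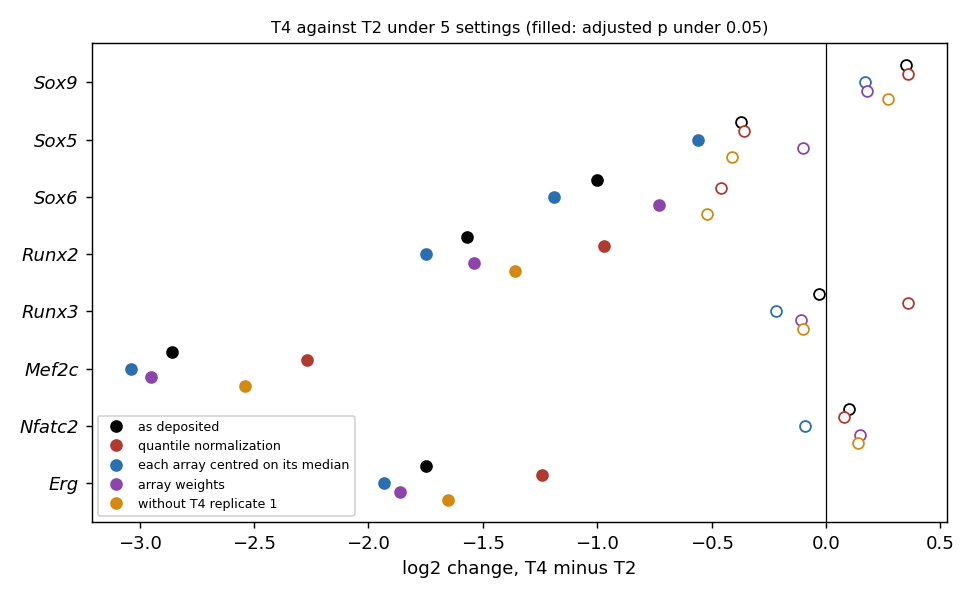
Log2 change at T4 minus T2 of each gene (horizontal axis) under 5 settings, given by colour. Filled points passed an adjusted p under 0.05. Mef2c, Runx2 and Erg stay filled under all 5, and Sox6 is open with quantile normalization (-0.46) and without T4 replicate 1 (-0.52). Sox5 is filled only with each array centred on its median (-0.56).

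The likeness of patterns was described by Pearson's r across arrays, where arrays of a stage share their level and T4 shares its narrow signal range. Over 15 arrays and 17475 genes, the highest r with Mef2c was 0.991 for the mitochondrial protease Pitrm1, followed by the translocon subunit Sec61a1 (0.990). For Runx2 it was 0.973 for the gap junction gene Gja1 and 0.972 for the cadherin Cdh2. For Sox5 it was Pard3 (0.969), for Sox6 the proteasome subunit Psmc5 (0.978) and for Erg Sos1 (0.962). For Nfatc2 the nearest were the muscle gene Tnnt2 (0.982) and the cartilage gene Epyc (0.977). Sox9 and Runx3 had no gene above 0.872 (Siah2) and 0.886 (B4galnt3).

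Over the 9 arrays of T0 to T2 most of these names changed. Cdh2 was again among the 3 nearest to Runx2 (0.955), beside the olfactory receptor gene Or7g34 (0.943) and Insc (0.942). Among the 3 nearest to Erg was the olfactory receptor gene Or2y1i (0.925). Values this high were thus also reached by genes that cartilage is not known to use. The nearest were Prrg1 for Mef2c (0.991), Vgll3 for Nfatc2 (0.996), Lrp11 for Sox5 (0.990), Defb20 for Sox6 (0.966), Gng14 for Erg (0.927), Srsf12 for Runx3 (0.989) and Isyna1 for Sox9 (0.921). Among the 8 genes themselves, the pairs with the highest r over 15 arrays were Runx2 with Mef2c (0.875), Sox5 with Nfatc2 (0.871) and Mef2c with Erg (0.871). Over the 9 arrays of T0 to T2 these were 0.25 for Runx2 with Mef2c, 0.897 for Sox5 with Nfatc2 and -0.524 for Mef2c with Erg, whose sign turned.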

How the data were processed

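Total RNA of rat knee cartilage was hybridised to Affymetrix RaGene 2.0 ST arrays, 3 per stage. The deposited log2 signals were made by the authors with RMA, which corrects background, equalises probe signals over arrays and summarises probe sets, per the submitters' processing notes. No source used here names the software version, the library file or the build. RMA partly removes a change shared by most transcripts.

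Probe sets were named from the platform annotation: 18511 carried 1 symbol, 575 several and 17599 none. Of the first, 18394 were matched by Entrez identifier to RefSeq for the current symbol. A gene with several probe sets was represented by the one with the highest mean.

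A linear model with 1 mean for each stage used all 15 arrays (limma 3.58.1, R 4.3.3, lmFit and eBayes), with Benjamini-Hochberg adjustment over 36685 probe sets within each of 6 comparisons and a moderated F test. An adjusted p under 0.05 was a call. The script was tested on simulated data. The genes, lists and tests were chosen with earlier results of these data known. Named were the 8 genes, up to 3 called genes of each list with the smallest p per comparison, and always Col2a1, Acan and Col10a1. Also named were up to 3 of the genes nearest to each of the 8 by Pearson's r. The search for nearest genes left out unnamed loci and microRNA, small nucleolar and vomeronasal genes by their platform prefixes. The same step did not remove all olfactory receptor genes, and Or7g34 and Or2y1i stayed in. Fli1, Runx1, Cdh5 and the blood, muscle and lymphocyte marker counts were named after their values were seen. Alternatives were quantile normalization, centring, a filter on probe sets under the median level, array weights, a replicate block, T1 replicate 3 placed with T2, smaller sets of arrays and leaving out each array.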

Additional observations from a re-analysis of the deposited data

How the results depend on the processing

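Every call on the 8 genes was a fall under all alternatives run except Sox9 at T4 against T3 and Runx2 at T1 against T0, which were called as rises under the alternatives named beside them. Counts of the 8 genes called moved as follows. At T2 against T1 the count was 1 with array weights (Mef2c), and at T3 against T2 it was 2 (Mef2c and Erg) with array weights or without the T4 arrays. At T4 against T3 it was 0 with only the 6 arrays compared, where Mef2c had adjusted p = 0.0536 in limma, and over the stages it was 3 without T3 and T4, which leaves 9 arrays, and 5, without Sox6, with quantile normalization or without the T4 arrays. The array weights stopped before convergence. Leaving out 1 array at a time gave 2 to 2 at T1 against T0, 0 to 0 at T2 against T1, 0 to 2 at T3 against T2 (2 without T3 replicate 3 or T4 replicate 1), 2 to 4 at T4 against T3, 2 to 3 at T2 against T0, 3 to 4 at T4 against T2 and 6 to 6 over the stages. Sox5 at T4 against T2 passed with arrays centred on their medians (-0.56, adjusted p = 0.0498), which moved the median change of all probe sets there to -0.12, against 0.07 as deposited. With quantile normalization 51.4% of calls at T4 against T3 were rises, against 39% as deposited, and 0% at T3 against T2, against 25.5%.

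Signs turned only in differences that were not called, and the cause was not tested. With quantile normalization Sox5 at T4 against T3 was 0.01 and Runx3 at T4 against T2 was 0.36. Centring gave -0.09 for Nfatc2 at T4 against T2, and array weights gave 0.12 for Sox5 at T4 against T3. With T1 replicate 3 placed with T2, Sox6 was -0.06 at T1 against T0 and 0.00 at T2 against T1, and Runx2 was 0.15 at T2 against T0. Leaving out 1 array, the ranges at T1 against T0 were -0.06 to 0.12 for Sox9 and -0.16 to 0.21 for Sox6, and at T2 against T0 -0.35 to 0.02 for Sox6 and -0.25 to 0.11 for Runx2. At T3 against T2 they were -0.24 to 0.01 for Runx3 and -0.15 to 0.04 for Nfatc2. At T4 against T3 they were -0.20 to 0.13 for Sox5 and -0.05 to 0.21 for Runx3, and at T4 against T2 -0.10 to 0.03 for Runx3. Deviations from the stage mean in same-numbered arrays of different stages correlated with r from -0.19 to 0.124 (30 pairs, 1 above 0.1). For arrays of different number r ran from -0.186 to 0.214 (60 pairs, 7 above 0.1). With 3 arrays per stage this cannot exclude a pairing by number. With the replicate number as a block the counts stayed at 2, 0, 0, 3, 3, 4 and 6 in the order of comparisons above, T2 against T0 before T4 against T2 and the stages last. Scanner files were not used here, so other background corrections and slides were not run.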
